A study of Mus musculus with 16 samples.

Results

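The 85 genes reported here encode proteins of the cytosolic ribosome or close paralogs of them. They were chosen by symbol: every symbol that begins with Rpl or Rps, goes on with a number and ends at most in a short suffix, together with Rplp0, Rplp1, Rplp2 and Rpsa. Names of pseudogenes and the S6 kinase genes were left out. The pattern gave 85 of the 24469 genes in the deposited tables, 52 for the large (60S) and 33 for the small (40S) subunit. Fau, which encodes a ribosomal protein fused to a ubiquitin-like moiety, does not match the pattern and was read with the elongation genes.

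Ribosomal protein mRNAs are among the most abundant mRNAs of mammalian cells, and many begin with a run of pyrimidines through which mTOR signaling controls their translation. Resting T cells are known to hold these mRNAs in store and to translate them more after activation. A few members have paralogs that can take their place in the ribosome, some of them best known from muscle or testis.

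The samples came from C57BL/6 mice, wild-type (Aire+/+) or lacking Aire (Aire-/-), that carried MC38 tumors and received anti-PD1 or an isotype antibody. At day 19 tumors and spleens were taken, mice of a group were pooled, and CD45+ or CD8+ cells were sorted for single-cell RNA sequencing. Each of the 16 combinations of tissue, sort, genotype and treatment is 1 library. Where 4 values follow one another, they stand in the order Aire+/+ isotype, Aire+/+ anti-PD1, Aire-/- isotype, Aire-/- anti-PD1.

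After filtering, 37453 of 37609 barcodes were kept. Tumor CD45+ libraries held 2930, 2208, 1856 and 2075 cells and tumor CD8+ libraries 2684, 2221, 1858 and 2212. Splenic libraries held 2095, 2088, 2023 and 2393 CD45+ cells and 2898, 2944, 2339 and 2629 CD8+ cells. UMI totals were 38930017, 28760714, 24639370 and 23282799 in tumor CD45+ and 35163274, 27052444, 22414023 and 23271160 in tumor CD8+ libraries. In the spleen they were lower, at 12131827, 10927391, 11179227 and 12618095 for CD45+ and 20126140, 19167788, 15590029 and 16279427 for CD8+.

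Aire itself had 24 UMIs in all libraries together, 18 in Aire+/+ and 6 in Aire-/- samples. By library the counts were 0, 2, 1 and 0 in tumor CD45+, 6, 3, 1 and 0 in tumor CD8+, 2, 5, 4 and 0 in splenic CD45+ and 0 in each splenic CD8+ library. UMIs mark one end of a transcript, which may lie outside the deleted part, so these counts check nothing about the knockout.

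To evaluate how much of the transcriptome the members made up, the sum of their UMIs was taken as a percentage of the UMI total of each library. The members took between about 1 in 7 and more than 1 in 3 of all UMIs. Both tissue and sort separated the libraries. Splenic CD8+ cells had the largest share and tumor CD45+ cells the smallest.

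The share was 14.6, 14.7, 14.1 and 18.5% in tumor CD45+ libraries and 25.3, 23.1, 24.2 and 23.5% in tumor CD8+ libraries. In splenic CD45+ libraries it was 26.4, 27.5, 27.9 and 27.3%, and in splenic CD8+ libraries 37.4, 37.9, 36.2 and 36.0%. None of the 4 sets of libraries overlapped with another. Means and standard deviations (SD) were 15.46 and 2.01, 24.01 and 0.957, 27.27 and 0.662, and 36.87 and 0.923%. The widest exact 95% interval of a share, which reflects counting alone, spanned 0.0529 points. One tumor CD45+ library, Aire-/- anti-PD1, stood apart from the other 3 and widened the SD of its set.

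Single cells gave the same order. The median share per cell was 13.2, 13.3, 12.1 and 17.0% in tumor CD45+, 24.8, 22.5, 23.7 and 22.2% in tumor CD8+, 27.0, 27.3, 27.6 and 26.5% in splenic CD45+ and 38.7, 38.9, 38.0 and 37.5% in splenic CD8+ libraries. Spread within a library was wide. In the Aire+/+ isotype mice the 10th and 90th percentiles were 6.74 and 21.3% for tumor CD45+ cells and 28.0 and 44.7% for splenic CD8+ cells. Depth also differed between the sets. It was lower in both splenic sets, which had the larger shares, but was not lowest in the set with the largest share. Library medians were 9889 to 12252 UMIs per cell in tumor CD45+, 8883 to 11164 in tumor CD8+, 4414 to 4733 in splenic CD45+ and 5801 to 6405 in splenic CD8+ libraries.

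Large-subunit members always outweighed small-subunit members, by a factor that also differed between the sets. The ratio was lowest in splenic CD8+ libraries (1.095 to 1.10), followed by splenic CD45+ (1.137 to 1.145) and tumor CD8+ (1.201 to 1.211), and highest in tumor CD45+ libraries (1.23 to 1.255).

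**Figure D1:**
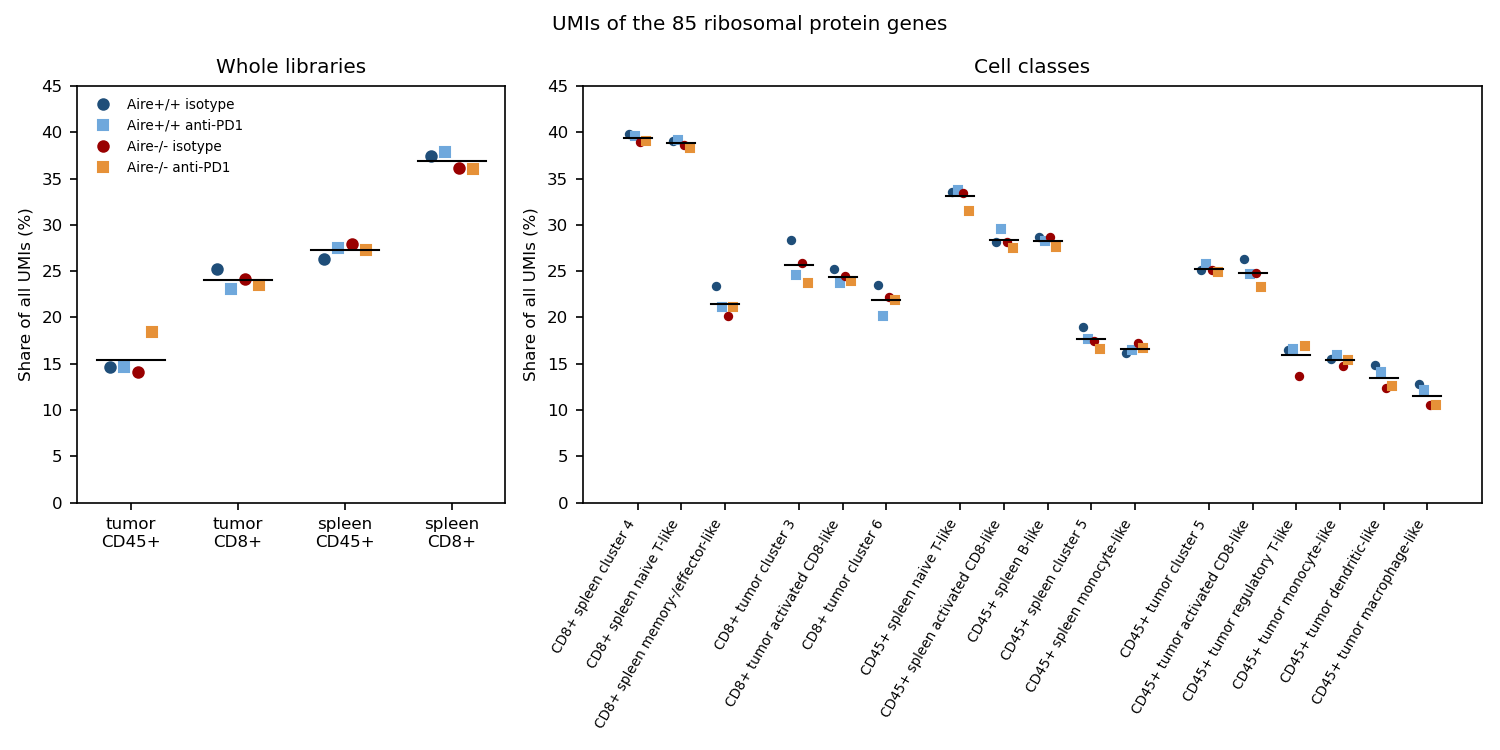
Share of all UMIs that fell on the 85 members, by library (left) and by cell class within libraries (right). Each point is 1 library and each bar a mean.

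To compare the members with one another, levels scaled to the UMI total of each library (CPM) were averaged over the 16 libraries. UMIs count ends of transcripts, so no scaling for length was needed. Near-identical pseudogene copies make the counts of single members uncertain, because a read that matches both places may be dropped or assigned to either. Means reached 5000 CPM for 12 members, 1000 CPM for 67 and 100 CPM for 79. Of the 100 genes with the highest mean, 62 were members.

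Rps24 led with a mean of 8064 CPM (3604 to 13266) and ranked 6 among all genes, and Rps29 followed with 7777 (4681 to 12623) and rank 7. Both belong to the 40S subunit. Next were Rpl41, one of the shortest proteins known, at 7065 (5058 to 8542), Rpl13 at 5848 (3089 to 8666) and Rpsa, also known as the laminin receptor precursor, at 5720 (2733 to 8632). These 5 genes made up 13.3% of all member UMIs and the highest 10 made up 23.8%. At the other end the lowest 10 together held 0.651%.

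Among the lowest were Rpl26 at 24.5 CPM (16.4 to 44.8), which lies near the exit tunnel of the 60S subunit, and the paralog Rps4l at 9.52 (3.01 to 18.5). Rpl3l, known from striated muscle, averaged 1.97 CPM (0 to 7.01) and Rpl39l, known from testis, 1.01 (0.447 to 1.54). A single UMI was counted for Rpl10l, another testis paralog (mean 0.00384 CPM). UMIs were found in all 16 libraries for 83 of the 85 members.

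Spread over the libraries was measured as the coefficient of variation (CV) in the 80 members with at least 50 CPM in every library. Its median was 0.309, against 0.197 in the 1394 other genes that reached the same level. Among the steadiest were the paralog Rpl36al (0.109), Rps25 (0.154), Rpl41 (0.156) and the paralog Rpl7l1 (0.173). The widest spread was in Rps27 (0.646), Rpl30 (0.516), Rpl22l1 (0.515), Rplp1 (0.494) and Rpl21 (0.494). Within the 4 libraries of a set the median CV was 0.137 in tumor CD45+, 0.0488 in tumor CD8+, 0.0377 in splenic CD45+ and 0.0411 in splenic CD8+ libraries. For the other genes these medians were 0.0833, 0.0441, 0.0498 and 0.0586. The tumor CD45+ values include the Aire-/- anti-PD1 library, in which many members stood apart from the other 3 libraries.

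Most members were lowest in a tumor CD45+ library and highest in a splenic CD8+ library. Some members had another place of highest level. Rps27 (1627 CPM), Rpl30 (736), Rpl21 (2818), Rpl29 (1481), Rpl14 (1223), Rpl34 (3649), Rpl26 (44.8) and Rpl7l1 (86.2) were highest in a splenic CD45+ library. Rpl24 was highest in the tumor CD8+ library of Aire+/+ isotype mice. The paralogs Rps27l (284 CPM), Rps4l (18.5) and Rpl3l (7.01) were highest in tumor CD45+ cells of Aire+/+ isotype mice. Rps27l was lowest in splenic CD8+ cells of Aire+/+ anti-PD1 mice (93.2 CPM).

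To evaluate the difference between tissues, tumor and spleen were first compared within the CD8+ sort, 4 libraries against 4. Nearly every member was lower in the tumor. One member, Rps27l, was higher. The median of all genes was close to 0, so the members as a group lay below the other genes.

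Of 83 members tested, 1 was higher and 77 were lower at an adjusted p below 0.05, while 75% of all 11729 tested genes were called (36.5% higher and 38.5% lower). No call was made for Rpl24, Rpl26, Rpl27, Rpl39l and Rps4l, and Rpl10l and Rpl3l were too low to test. The median log2 fold change of the members was -0.67, with quartiles at -0.82 and -0.47. It was -0.64 for the large and -0.72 for the small subunit, against -0.03 for all tested genes. When every cell was thinned to 1000 UMIs, 5539 genes were called in place of 8796, and the members remained at 1 higher and 77 lower.

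In the 40S subunit the largest fold was that of Rps27, a zinc-finger protein, with 483, 463, 318 and 321 CPM in the tumor and 971, 1166, 1035 and 834 in the spleen. Rps19, mutated in Diamond-Blackfan anemia, had 2823, 2387, 2529 and 2339 CPM against 5120, 5774, 5553 and 4816. For Rps24 the values were 6592, 6086, 6589 and 6408 against 13266, 12760, 12295 and 13215. Every tumor value of these 3 genes lay below every splenic one. In edgeR Rps27 fell by 1.45 log2 units (SE 0.10, adjusted p = 2.44e-05), Rps19 by 1.17 (SE 0.08, adjusted p = 2.48e-05) and Rps24 by 1.10 (SE 0.07, adjusted p = 1.14e-05). Rpsa stood at 5807, 5354, 5597 and 5558 CPM in the tumor and 8632, 8589, 8254 and 8496 in the spleen, again without overlap, and had a smaller fold (-0.70, SE 0.06, adjusted p = 6.40e-05, edgeR).

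Among 60S members Rpl12, at the base of the stalk, counted 1428, 1245, 1298 and 1230 CPM in the tumor and 2743, 3234, 2993 and 2541 in the spleen. Rpl22l1, the paralog of the RNA-binding protein Rpl22, counted 284, 296, 288 and 354 against 729, 786, 732 and 708. Both were low in all tumor libraries and the tissues did not overlap. Rpl12 fell by 1.24 (SE 0.09, adjusted p = 2.51e-05, edgeR) and Rpl22l1 by 1.37 (SE 0.09, adjusted p = 1.72e-05, edgeR), whereas Rpl22 had a log2 fold change of -0.63. Rpl41 differed little: 7979, 7237, 7781 and 7559 CPM in the tumor lay just below 8542, 8286, 8000 and 8369 in the spleen (-0.22, SE 0.06, adjusted p = 0.018, edgeR).

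The stalk proteins, which recruit elongation factors to the ribosome, were all lower in the tumor. Rplp0, the base to which the others bind, had 5346, 4796, 4932 and 4981 CPM in the tumor and 8153, 8202, 7769 and 7979 in the spleen. Rplp1 had 3558, 3097, 3290 and 3135 against 7907, 8794, 8081 and 7128, and Rplp2 2186, 2014, 2290 and 2154 against 3631, 3544, 3367 and 3509. No tumor value of the 3 genes reached a splenic one. The fold of Rplp1 (-1.38, SE 0.09, adjusted p = 1.36e-05, edgeR) was larger than those of Rplp0 (-0.77, SE 0.06, adjusted p = 4.52e-05, edgeR) and its partner Rplp2 (-0.80, SE 0.07, adjusted p = 5.64e-05, edgeR).

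Rps27l, a p53 target and paralog of Rps27, was the single member higher in the tumor, with 212, 185, 190 and 185 CPM against 99.0, 93.2, 104 and 106 in the spleen. The lowest tumor library was well above the highest splenic one, and edgeR gave a log2 fold change of 0.85 (SE 0.05, adjusted p = 1.23e-05). Rpl36al, an autosomal copy of the X-linked Rpl36a, moved less than Rpl36a (-0.33 against -0.88). Its values were 846, 821, 846 and 840 CPM in the tumor and 1020, 965, 951 and 1006 in the spleen. Rpl7l1, with 52.8, 53.6, 54.5 and 54.1 CPM against 62.0, 56.2, 63.9 and 68.4, had a fold of -0.31 where Rpl7 had -0.64. For Rps4l, tumor values of 7.91, 7.17, 8.21 and 3.01 CPM overlapped with splenic values of 5.86, 4.44, 4.04 and 5.16, and it was not called (0.27, SE 0.26, adjusted p = 0.371, edgeR). With Aire-/- anti-PD1 mice left out, Rps4l was higher in the tumor (0.59, adjusted p = 0.016, edgeR).

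**Figure D2:**
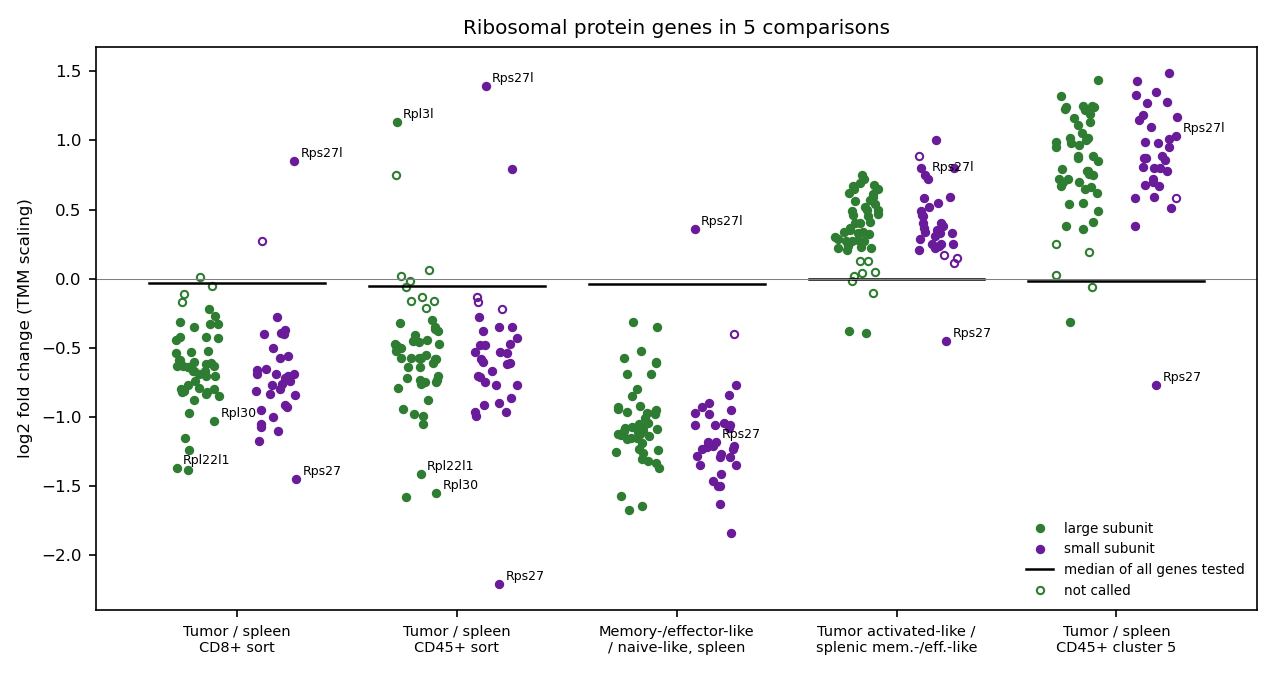
Log2 fold change of each tested member in the 5 comparisons, by subunit. Open circles mark members not called by edgeR, and the black line marks the median of all tested genes.

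Cell makeup differed along with the tissues. Summed levels of naive T-cell genes were 877 CPM in the tumor and 2742 in the spleen, with Ccr7 the most abundant at 439 in the tumor and Il7r at 483 in the spleen. Genes of activated CD8+ cells summed to 16684 against 176 CPM, with Gzmb at 3800 and 44.4, and cell cycle genes to 1417 against 337. Macrophage genes summed to 147 against 8.28 CPM and erythroid genes to 0.00711 against 70.5. The splenic erythroid sum came mostly from Aire+/+ isotype mice, with 249, 4.17, 2.31 and 26.7 CPM. Whether these cells made up the difference of the members was not tested.

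Folds depend on the scaling. With total UMIs as the scale, the median of all genes shifted by 0.10 in the CD8+ sort, and with UMIs outside ribosomal protein genes by -0.17. A change of scale moves all genes alike, so the distance of the members from the median of all genes, -0.64, is the same under each scale by construction. The median of the members was below 0 under each of them.

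Tumor and spleen were compared in the same way in the CD45+ sort, whose makeup differs far more between tissues. Most members were again lower in the tumor. The paralogs Rpl3l, Rps4l and Rps27l were higher, and 12 members were not called. Differences between members were wider than in the CD8+ sort.

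Of 84 members tested, 3 were higher and 69 lower, against 72.3% of all 12181 tested genes called (34.9% higher and 37.4% lower). Among those not called were Rpl10, Rpl24, Rpl27, Rpl36al, Rpl39l, Rpl41, Rpl7l1, Rps25 and Rps6. The median log2 fold change was -0.56, with -0.55 for the large and -0.58 for the small subunit, and that of all genes was -0.05. The median of all genes shifted by -0.24 with total UMIs as the scale and by -0.45 with UMIs outside ribosomal protein genes. Members called were then 3 higher and 77 lower, against 27.2 and 47.8% of all genes, and 2 higher and 80 lower, against 21.7 and 56.3%. The members lay -0.51 from the median of all genes, a distance that scaling cannot move.

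Rps27 again had the largest fold of the 40S members, with 179, 232, 262 and 414 CPM in the tumor and 1166, 1589, 1627 and 1320 in the spleen (-2.21, SE 0.18, adjusted p = 7.43e-05, edgeR). Rps15a counted 2050, 2310, 2304 and 3805 CPM against 5251, 5608, 5720 and 5766. Both genes were highest, within the tumor, in Aire-/- anti-PD1 mice, yet far below every splenic library. Rps15a had a log2 fold change of -0.90, close to those of Rps24 (-0.96), Rps20 (-0.91) and Rps19 (-0.99). Rpsa was at -0.70, the same value as in the CD8+ sort.

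After Rps27, members of the 60S subunit led on the lower side. Rpl21 had 566, 633, 613 and 938 CPM in the tumor and 1901, 2253, 2586 and 2818 in the spleen, and Rpl30 had 125, 145, 156 and 221 against 400, 549, 736 and 545. For Rpl22l1 the values were 133, 161, 151 and 263 against 540, 534, 478 and 588, and for Rpl14 396, 417, 425 and 603 against 962, 1144, 1223 and 1125. All tumor values of these genes were below the splenic ones. Rpl21 fell by 1.58 (SE 0.10, adjusted p = 2.03e-05, edgeR) and Rpl30 by 1.55 (SE 0.15, adjusted p = 1.22e-04, edgeR). Rpl22l1 fell by 1.41 (SE 0.13, adjusted p = 1.20e-04, edgeR) and Rpl14 by 1.05 (SE 0.11, adjusted p = 1.95e-04, edgeR).

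Other 60S members gave weaker results. Rpl41, at 5483, 5363, 5058 and 6278 CPM against 6823, 6795, 6861 and 6622, was not called although the tissues did not overlap (-0.06, SE 0.08, adjusted p = 0.545, edgeR). It was called lower with total UMIs (-0.29, adjusted p = 0.0284, edgeR) and with UMIs outside ribosomal protein genes (-0.51, adjusted p = 0.00458, edgeR) as the scale. Rpl3, which reaches toward the peptidyl transferase center, was lower (-0.49, adjusted p = 0.00964, edgeR), and that call was lost without Aire+/+ anti-PD1 mice (-0.42, adjusted p = 0.0536, edgeR). Rpl10, which joins late in 60S assembly, was not called (-0.16, adjusted p = 0.1, edgeR). It was called lower without the block for mice (adjusted p = 0.0468, edgeR) and without Aire-/- anti-PD1 mice (-0.17, adjusted p = 0.0377, edgeR). Its fold was -0.40 with total UMIs and -0.61 with UMIs outside ribosomal protein genes as the scale.

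In the stalk, Rplp0 had 2851, 2809, 2778 and 3706 CPM in tumor CD45+ cells and 4603, 4671, 4708 and 4464 in splenic ones. Rplp1 had 2221, 2315, 2100 and 2679 against 4514, 4716, 4542 and 4328, and Rplp2 1328, 1357, 1290 and 1689 against 2223, 2339, 2524 and 2445. Splenic libraries were higher in each case, without overlap. Rplp1 fell most (-0.73, SE 0.09, adjusted p = 3.72e-04, edgeR), Rplp2 fell by 0.52 (SE 0.09, adjusted p = 0.00165, edgeR) and Rplp0 by 0.38 (SE 0.10, adjusted p = 0.0109, edgeR). The call of Rplp0 was lost without Aire+/+ anti-PD1 mice (-0.34, adjusted p = 0.0653, edgeR) or Aire-/- isotype mice (-0.33, adjusted p = 0.0562, edgeR).

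Among paralogs Rps27l had 284, 275, 258 and 241 CPM in the tumor and 136, 115, 121 and 106 in the spleen, with no overlap, and rose by 1.39 (SE 0.08, adjusted p = 1.42e-05, edgeR). Rpl3l had 7.01, 4.94, 5.36 and 2.53 CPM against 4.45, 2.75, 1.97 and 1.59, where the Aire-/- anti-PD1 tumor library lay within the splenic values (1.13, SE 0.20, adjusted p = 0.0019, edgeR). Rps4l had 18.5, 17.5, 16.7 and 11.0 CPM against 9.89, 12.2, 11 and 9.83, again with overlap through the same library (0.79, SE 0.14, adjusted p = 0.00247, edgeR). The call of Rps4l was lost with UMIs outside ribosomal protein genes as the scale (0.33, adjusted p = 0.0522, edgeR). Rpl39l was not called (0.75, adjusted p = 0.104, edgeR), but was higher without Aire-/- anti-PD1 mice (adjusted p = 0.0393, edgeR). Rpl36al (0.06, adjusted p = 0.513, edgeR) and Rpl7l1 (0.02, adjusted p = 0.893, edgeR) did not differ by test. With UMIs outside ribosomal protein genes as the scale both turned and were called lower (-0.39, adjusted p = 0.00602, and -0.43, adjusted p = 0.0173, edgeR).

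B-cell genes summed to 17.5 CPM in tumor and 5732 in splenic CD45+ libraries, with Cd79b highest in the tumor (13.1) and Cd79a in the spleen (2422). Macrophage genes summed to 6013 against 301 CPM, with C1qb at 1642 in the tumor and Apoe at 258 in the spleen. Across tumor libraries their sum was 8287, 8622, 5577 and 1565 CPM, lowest in the library with the highest member share. Genes of activated CD8+ cells summed to 6693 against 187 CPM. Whether makeup carried the difference of the members was not tested.

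To separate cell state from makeup, cells of the CD8+ sort were clustered without the member genes and the share was read within clusters. Naive-like splenic cells had a far larger member share than the other named classes. Memory-/effector-like splenic cells had a share close to that of tumor cells.

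The 8271 naive-like cells (clusters 1 and 2) had shares of 39.1, 39.2, 38.6 and 38.3% (mean 38.8, SD 0.426). Cluster 5, 674 memory-/effector-like cells, had 23.4, 21.2, 20.1 and 21.1% (21.5, SD 1.39). In the tumor, cluster 0 with 4652 activated-like cells had 25.2, 23.7, 24.4 and 24.0% (24.3, SD 0.649). Tumor values overlapped with none of the naive-like values, and all were above those of cluster 5 in the same mice. Median UMIs per cell were 5669 to 6232 in naive-like, 4302 to 4973 in memory-/effector-like and 11086 to 12256 in activated-like cells.

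Clusters 3, 4 and 6 were kept outside these classes. Cluster 3 in the tumor, led by the interferon genes Ifit3, Ifit1, Cxcl10 and Isg15, had 28.4, 24.6, 25.9 and 23.7% (25.7, SD 2.04), and cycling cluster 6 had 23.6, 20.2, 22.2 and 21.8% (21.9, SD 1.4). Cluster 4 in the spleen, 1101 cells led by Klra23, Gzmm and Klra12, had 39.8, 39.6, 38.9 and 39.1% (39.4, SD 0.42), as high as naive-like cells. It had 8076 to 9412 median UMIs per cell. Cluster 3 held 27.1 to 46.3% of tumor CD8+ cells and cluster 4 held 9.44 to 11.2% of splenic CD8+ cells.

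Cluster 4 shared marker genes with both splenic classes. Ccl5 was at 86.9 CPM in naive-like cells, 4690 in cluster 4 and 21828 in memory-/effector-like cells, and Cxcr3 at 19.7, 181 and 243. Lef1 was at 550, 269 and 82.9 CPM. Klrg1 had no UMI in naive-like cells, 0.290 CPM in cluster 4 and 175 in memory-/effector-like cells. Levels of several abundant members in cluster 4 were near those of naive-like cells. In the same order of classes, Rps20 was at 8757, 8655 and 3049 CPM and Rplp0 at 8423, 8615 and 4768. Rplp1 was at 8557, 8324 and 3571 CPM and Rpl36a at 3103, 3322 and 1237. Other members differed more from naive-like cells, with Rps4l at 2.36, 8.28 and 2.485 CPM and Rps27l at 85.1, 104 and 131.5. No test compared cluster 4 with naive-like cells.

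In the CD45+ sort, splenic naive T-like cells had a mean share of 33.1% (SD 1.07), activated CD8-like cells 28.4% (SD 0.861) and B-like cells 28.3% (SD 0.494). The B-like class joins 3 clusters that differ: cluster 7 was at 35.0, 34.2, 34.8 and 33.6%, above naive T-like cells in the spleens of all mice, and clusters 1 and 2 were at 24.4 to 27.9%. At the finer resolution 312 of the 322 splenic activated CD8-like cells fell in an unnamed cluster led by Cd7, Ccl5 and Ms4a4b, so that name holds less for the spleen than for the tumor. Splenic monocyte-like cells were at 16.6% (SD 0.454). In the tumor, activated CD8-like cells were at 24.8% (SD 1.23), regulatory T-like at 15.9 (SD 1.51), monocyte-like at 15.4 (SD 0.509) and dendritic-like cells at 13.5 (SD 1.21). Macrophage-like cells were lowest of the classes with 50 cells per library, at 12.9, 12.1, 10.5 and 10.5%.

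Memory-/effector-like cells were then set against naive-like cells of the same spleens, gene by gene. Genes of activated CD8+ cells summed to 1015 CPM in memory-/effector-like and 65.2 in naive-like cells, against 21616 in tumor activated-like cells. The comparison is therefore not one of naive with activated cells. Almost all members were lower in memory-/effector-like cells. The size of the folds depended on how the class was defined: the median of the members was -1.10 with cluster 5 alone, -0.23 with cluster 4 joined and -0.20 with cells chosen by marker UMIs. Rps27l was again the single member on the other side. All cells in this comparison came from the same tissue and sort.

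Of 82 members tested, 1 was higher and 80 were lower, while 44.5% of 9820 tested genes were called (22.3% higher and 22.2% lower). Rps4l was not called (-0.40, adjusted p = 0.649, edgeR), but was higher with cells chosen by marker UMIs (1.02, adjusted p = 0.00506, edgeR) and with cluster 4 joined (1.45, adjusted p = 0.000484, edgeR). The median log2 fold change was -1.10, with -1.08 for the large and -1.21 for the small subunit, against -0.04 for all genes. Total UMIs as the scale shifted the median of all genes by 0.30, and relative to that median the members were at -1.06.

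Rps20, in the head of the 40S subunit, had the largest fold, with 3547, 2849, 2597 and 3204 CPM in memory-/effector-like and 9025, 8630, 8403 and 8969 in naive-like cells. Rps19 had 2421, 2380, 2153 and 2076 against 5385, 5996, 6021 and 5179, and Rps24 had 7136, 6312, 5293 and 6046 against 14344, 13494, 13643 and 14581. Naive-like values were higher throughout and far from overlap. Rps20 fell by 1.84 (SE 0.08, adjusted p = 2.11e-20, edgeR) and Rps19 by 1.63 (SE 0.07, adjusted p = 2.02e-19, edgeR), and Rps24 was lower as well (SE 0.08, adjusted p = 6.24e-18, edgeR). Rps27, with 628, 712, 563 and 472 CPM against 1034, 1218, 1128 and 915, was nearer to the median (-1.18) than between the tissues. Rpsa counted 5717, 4879, 5062 and 5625 against 8908, 8839, 8634 and 8900 (-1.04).

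In the 60S subunit Rpl12 had 1342, 1246, 1128 and 1117 CPM in memory-/effector-like and 2935, 3366, 3306 and 2775 in naive-like cells. Rpl36a, near the exit site for tRNA, had 1423, 1198, 1130 and 1196 against 3090, 3230, 3111 and 2981. Neither gene overlapped, and edgeR gave -1.67 (SE 0.08, adjusted p = 2.74e-19) for Rpl12 and -1.64 (SE 0.07, adjusted p = 2.29e-19) for Rpl36a. Folds were smaller in Rpl41 (-0.80), Rpl26 (-0.69) and Rpl29 (-0.61). Rpl22 (-1.07) and its paralog Rpl22l1 (-1.10) had similar folds here, unlike between the tissues, though Rpl22 was not called with cells chosen by marker UMIs (-0.15).

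Rplp1 was the most changed of the stalk proteins also between these classes, with 3957, 3747, 3264 and 3314 CPM against 8401, 9229, 8891 and 7707. Rplp0 counted 5089, 4482, 4494 and 5009 against 8495, 8481, 8268 and 8447, and Rplp2 counted 2501, 2079, 1939 and 2174 against 3787, 3644, 3571 and 3696. All 3 were low in memory-/effector-like cells of all mice, without overlap. Rplp1 fell by 1.57 (SE 0.08, adjusted p = 1.30e-18, edgeR), Rplp0 by 1.13 (SE 0.07, adjusted p = 3.23e-15, edgeR) and Rplp2 by 1.07 (SE 0.07, adjusted p = 7.05e-15, edgeR).

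Rps27l had 84.2, 129, 159 and 154 CPM in memory-/effector-like cells and 84.4, 83.8, 85.4 and 86.9 in naive-like cells. The Aire+/+ isotype library did not differ, so the classes overlapped, and the rise of 0.36 (SE 0.10, adjusted p = 0.00348, edgeR) rested on the other 3 sets of mice. It was not called without Aire-/- isotype (0.25, adjusted p = 0.0981, edgeR) or Aire-/- anti-PD1 mice (0.26, adjusted p = 0.0715, edgeR), and DESeq2 gave 0.32 with an adjusted p of 0.0907 where edgeR made the call. Rpl36al had 963, 924, 984 and 939 CPM against 1015, 969, 946 and 1007, an overlap, with a fold after scaling of -0.35 (SE 0.07, adjusted p = 3.34e-05, edgeR). Rpl7l1 had 55.6, 64.4, 59.7 and 60.7 CPM against 58.8, 54.2, 60.4 and 64.5, which overlapped too (-0.31, SE 0.11, adjusted p = 0.016, edgeR). With total UMIs as the scale the folds of Rpl36al and Rpl7l1 were -0.05 and -0.01, neither called. The call of Rpl7l1 was lost without Aire-/- isotype (-0.29, adjusted p = 0.0836, edgeR) or Aire-/- anti-PD1 mice (-0.30, adjusted p = 0.0704, edgeR), and with DESeq2 in place of edgeR (-0.30, adjusted p = 0.123).

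With cluster 4 joined to the memory-/effector-like cells, 2 members were higher and 70 lower, against 18.2 and 16.8% of all tested genes. With cells chosen by marker UMIs in place of clusters, 2 of 83 were higher and 50 lower, against 15.9 and 14.3%. Rplp2 (-0.18, adjusted p = 0.0507, edgeR) and Rpsa (-0.12, adjusted p = 0.169, edgeR) were not called with the marker UMIs. Neither were Rpl22 (-0.15, adjusted p = 0.0859, edgeR), Rpl39 (-0.15, adjusted p = 0.104, edgeR), Rpl36al (-0.08, adjusted p = 0.266, edgeR), Rpl41 (-0.14, adjusted p = 0.0944, edgeR) and Rpl7l1 (-0.03, adjusted p = 0.727, edgeR). With cluster 4 joined, Rpsa (-0.14, adjusted p = 0.0554, edgeR), Rpl36al (-0.07, adjusted p = 0.225, edgeR) and Rpl7l1 (-0.00, adjusted p = 0.961, edgeR) were not called. Naive T-cell genes summed to 1073 CPM in memory-/effector-like and 3174 in naive-like cells, and memory and effector genes to 29749 against 1171, with Ccl5 at 21828 the most abundant. Genes of natural killer cells summed to 200 against 1.15 CPM (Klre1 143) and cell cycle genes to 1070 against 149, and whether such cells added to the folds was not tested.

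Next, tumor activated-like cells were compared with memory-/effector-like cells of the spleen. The direction turned: most members were higher in the tumor, with small folds. This depended on scale and class. With total UMIs as the scale 39 of 82 members were higher, and with cluster 4 joined to the splenic class 70 of 83 were lower (median -0.49). This comparison shares the splenic memory-/effector-like sums with the comparison to naive-like cells, and the comparisons of CD8+ cells all share libraries. No relation between their folds was computed for that reason.

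Of 82 members tested, 68 were higher and 3 lower (Rpl22l1, Rpl29 and Rps27), while 48.8% of 10163 tested genes were called (25.6% higher and 23.2% lower). Another 11 were not called. The median log2 fold change was 0.36 (0.35 for the large and 0.37 for the small subunit), against -0.00 for all genes. The median of all genes shifted by -0.20 with total UMIs as the scale and by -0.15 with UMIs outside ribosomal protein genes. Members called were then 39 higher and 6 lower, against 18.1 and 33.9% of all genes, and 47 higher and 5 lower, against 19.9 and 30.6%. Relative to the median of all genes the members were at 0.36 under the TMM scale.

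Small-subunit members led on the higher side. Rps26 had 5160, 4706, 4826 and 5029 CPM in the tumor and 3197, 2592, 2602 and 3080 in the spleen. Rps20 had 4656, 4416, 4547 and 4567 against 3547, 2849, 2597 and 3204, and Rps15a had 6485, 6523, 6818 and 6594 against 4866, 4229, 4138 and 4331. Tumor libraries were above all splenic ones for the 3 genes. Rps26 had the largest log2 fold change of the tested members (SE 0.08, adjusted p = 6.46e-10, edgeR), but was not called with cluster 4 joined to the splenic class (0.08, adjusted p = 0.386, edgeR). Rps20 rose by 0.80 (SE 0.08, adjusted p = 6.40e-08, edgeR) and Rps15a by 0.80 (SE 0.08, adjusted p = 2.15e-08, edgeR). Both were lower with cluster 4 joined (-0.66, adjusted p = 4.18e-05, and -0.27, adjusted p = 0.0159, edgeR). Rps27, with 455, 453, 310 and 300 CPM against 628, 712, 563 and 472, was lower without overlap (-0.45, SE 0.08, adjusted p = 7.25e-05, edgeR). Rpsa (0.29) and Rps24 (0.21, adjusted p = 0.0331, edgeR) were slightly higher. The call of Rpsa was lost with total UMIs (0.08, adjusted p = 0.281, edgeR) and with UMIs outside ribosomal protein genes as the scale (0.14, adjusted p = 0.094, edgeR), and so was that of Rps24 (0.00, adjusted p = 0.965, and 0.06, adjusted p = 0.543, edgeR). With cluster 4 joined Rps24 (-0.86, adjusted p = 4.79e-06, edgeR) and Rpsa (-0.60, adjusted p = 5.01e-05, edgeR) were lower.

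Rpl3 counted 3025, 2731, 2712 and 2602 CPM in the tumor and 2072, 2116, 1787 and 1664 in the spleen. Rpl22l1 counted 269, 288, 276 and 357 against 467, 407, 485 and 430, and Rpl29 counted 695, 754, 585 and 859 against 1196, 1020, 999 and 1093. None of these genes overlapped. Rpl3 rose by 0.75 (SE 0.07, adjusted p = 2.87e-08, edgeR), Rpl22l1 fell by 0.39 (SE 0.09, adjusted p = 0.00118, edgeR) and Rpl29 fell by 0.38 (SE 0.08, adjusted p = 8.12e-04, edgeR). Rpl41 had a log2 fold change of 0.57. With cluster 4 joined neither Rpl41 (-0.07, adjusted p = 0.472, edgeR) nor Rpl3 (-0.16, adjusted p = 0.108, edgeR) was called.

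For the stalk the picture was mixed. Rplp0 had 5242, 4866, 4909 and 5092 CPM in the tumor against 5089, 4482, 4494 and 5009, Rplp1 had 3186, 2973, 3028 and 2947 against 3957, 3747, 3264 and 3314, and Rplp2 had 2167, 2044, 2304 and 2178 against 2501, 2079, 1939 and 2174. Rplp0 and Rplp2 overlapped, and Rplp1 was lower in every tumor library before TMM scaling. After it, Rplp1 did not differ by test (-0.02, SE 0.07, adjusted p = 0.839, edgeR), and Rplp0 was higher (0.29, SE 0.07, adjusted p = 0.00233, edgeR). The call of Rplp0 was lost with total UMIs (0.08, adjusted p = 0.3, edgeR) and with UMIs outside ribosomal protein genes as the scale (0.13, adjusted p = 0.0962, edgeR). Rplp1 was called lower with total UMIs (-0.23) and with UMIs outside ribosomal protein genes (-0.18) as the scale. With cluster 4 joined to the splenic class, Rplp1 was lower (-1.22, adjusted p = 2.36e-07, edgeR). So were Rplp0 (-0.61, adjusted p = 3.97e-05, edgeR) and Rplp2 (-0.65, adjusted p = 5.12e-05, edgeR). Rplp2 was higher (0.22, SE 0.08, adjusted p = 0.0334, edgeR), a call that was lost under both scales (0.01 and 0.06) and without the block for mice (0.21, adjusted p = 0.0629, edgeR). It was also lost without Aire+/+ anti-PD1 (0.20, adjusted p = 0.112, edgeR) or Aire-/- isotype mice (0.11, adjusted p = 0.273, edgeR), and with DESeq2 in place of edgeR (0.23, adjusted p = 0.0578).

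Rps27l had 203, 183, 188 and 203 CPM in the tumor and 84.2, 129, 159 and 154 in the spleen, without overlap (0.75, SE 0.12, adjusted p = 2.11e-05, edgeR). Rpl36al had a fold of 0.05 and was not called. Rps4l was not called (0.89, adjusted p = 0.269, edgeR), but was higher without Aire+/+ isotype mice (2.06, adjusted p = 0.0391, edgeR). The splenic class held only 8 Rps4l UMIs, and none in Aire+/+ anti-PD1 or Aire-/- isotype mice, so the size of these folds is uncertain. Joining cluster 4 to the splenic class turned the result for the members as a whole: the median became -0.49, with 2 of 83 higher and 70 lower, against 32.3 and 33.9% of all genes. Rps4l was then lower too (-0.84, adjusted p = 0.0285, edgeR). Memory and effector genes summed to 9686 CPM in the tumor against 29749, genes of activated CD8+ cells to 21616 against 1015, and cell cycle genes to 699 against 1070. Their part in the folds was not tested.

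Cluster 5 of the CD45+ sort, led by Gzmc, Gzma, Gzmd, Xcl1 and Ncr1, was present in both tissues. Its cells came apart by tissue at the finer resolution of 0.8, where 697 of the 710 tumor cells fell in a cluster led by Gzmc and 231 of the 270 splenic cells in another led by Gzma and Ncr1. The comparison is therefore not one within a uniform population. Members were higher in the tumor part, and the folds were larger than for activated-like CD8+ cells. Rps27 and Rpl30 were lower. The total share moved in the same direction.

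That share was 25.1, 25.8, 25.1 and 24.9% in the tumor (mean 25.2, SD 0.41; 710 cells) and 18.9, 17.7, 17.5 and 16.6% in the spleen (17.7, SD 0.968; 270 cells). The spleens gave 91, 52, 62 and 65 cells. Of 82 members tested, 75 were higher and 2 lower, while 41% of 7761 tested genes were called (22% higher and 19% lower). Rpl21, Rpl26, Rpl34, Rpl7l1 and Rps4l were not called. The median log2 fold change was 0.87 (0.85 for the large and 0.87 for the small subunit), against -0.02 for all genes. The median of all genes shifted by -0.36 with total UMIs as the scale and by -0.22 with UMIs outside ribosomal protein genes, and relative to it the members were at 0.88.

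In the 40S subunit Rps2, near the entry of mRNA, had 4458, 4320, 3929 and 4207 CPM in the tumor and 1953, 2218, 1938 and 1642 in the spleen. Rps6, the substrate of the S6 kinases, had 1895, 1962, 1841 and 1807 against 1066, 968, 842 and 733, and Rps18 had 3101, 3241, 3151 and 3091 against 1926, 1713, 1303 and 1453. Tumor values were higher for each, with wide gaps. Rps2 rose by 1.49 (SE 0.09, adjusted p = 1.95e-09, edgeR), Rps6 by 1.43 (SE 0.10, adjusted p = 1.27e-08, edgeR) and Rps18 by 1.35 (SE 0.10, adjusted p = 3.37e-08, edgeR). Rps27 went the other way, with 280, 356, 449 and 452 CPM against 870, 814, 910 and 730, no overlap and a log2 fold change of -0.77 (SE 0.13, adjusted p = 1.96e-04, edgeR).

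Rpl35, at the exit tunnel of the 60S subunit, counted 4129, 4135, 3827 and 3838 CPM in the tumor and 1976, 1998, 1966 and 1638 in the spleen. Rpl30 counted 214, 227, 262 and 267 against 324, 355, 505 and 367. Neither gene overlapped. Rpl35 rose by 1.44 (SE 0.08, adjusted p = 1.47e-09, edgeR), and Rpl41 had a log2 fold change of 1.32, with 10160, 9768, 9249 and 9149 CPM against 5088, 4941, 5108 and 4628. Rpl30 fell by 0.31 (SE 0.11, adjusted p = 0.0356, edgeR), and this call was not kept without the block for mice (adjusted p = 0.0609, edgeR). It was also lost without Aire+/+ isotype (-0.30, adjusted p = 0.0649, edgeR), Aire+/+ anti-PD1 (-0.30, adjusted p = 0.101, edgeR) or Aire-/- isotype mice (-0.21, adjusted p = 0.205, edgeR). Rpl22l1 was higher (0.36, adjusted p = 0.0135, edgeR), but not without Aire-/- isotype (0.28, adjusted p = 0.0804, edgeR) or Aire-/- anti-PD1 mice (0.37, adjusted p = 0.0504, edgeR), and its fold was 0.00 with total UMIs as the scale.

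Rplp0 led the stalk in this cluster, with 5040, 5005, 4846 and 4963 CPM in the tumor and 2758, 3012, 2827 and 2368 in the spleen. The tissues did not overlap, and Rplp0 rose by 1.22 (SE 0.08, adjusted p = 1.27e-08, edgeR). Rplp1 rose by 0.65 (SE 0.08, adjusted p = 1.31e-05, edgeR) and Rplp2 by 0.70 (SE 0.08, adjusted p = 4.24e-06, edgeR). Rps27l, with 244, 203, 195 and 229 CPM against 121, 116, 149 and 165, was higher without overlap (1.03, SE 0.13, adjusted p = 1.15e-05, edgeR). Rpl36al had a fold of 0.70. Genes of natural killer cells, none of 7 at zero, summed to 3379 CPM in the tumor against 8854, with Tyrobp at 2084 and 3761. B-cell genes summed to 0.573 CPM against 155 and memory and effector genes to 7912 against 26370. Genes of activated CD8+ cells summed to 29842 against 2717 (Gzmc 19386 in the tumor), and T-lineage genes to 107 against 260. Macrophage genes summed to 185, 26, 19.9 and 17.7 CPM in the tumor and 27.7, 0, 0 and 3.3 in the spleen, highest in Aire+/+ isotype mice in both. The part of these genes was not tested.

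To follow the paralogs apart from the total, each was read as a percentage of the UMIs of its pair. Rps27l made up 61.3, 54.3, 49.7 and 36.8% of the pair with Rps27 in tumor CD45+ and 30.5, 28.6, 37.4 and 36.5% in tumor CD8+ libraries. In the spleen it made up 10.4, 6.73, 6.91 and 7.4% in CD45+ and 9.26, 7.4, 9.13 and 11.3% in CD8+ libraries. Tumor libraries were above all splenic libraries. Rps27 fell and Rps27l rose between tissues in both sorts, so both moved the percentage.

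Rpl22l1 showed the reverse, with 10.5, 12.5, 12.5 and 16.7% of its pair in tumor CD45+, 14.1, 15.5, 14.2 and 18% in tumor CD8+, 22.1, 21.1, 18.2 and 22% in splenic CD45+ and 22.5, 24.8, 24 and 22.1% in splenic CD8+ libraries. The highest tumor library, at 18%, was just below the lowest splenic library at 18.2%. Rpl36al made up 45.6, 43.2, 43.7 and 38.9%, 31.2, 34.1, 32.7 and 34.4%, 29.9, 28.3, 30 and 29.4%, and 25.8, 23.7, 24.9 and 26.4% in the same order of sets, which did not overlap. Rpl7l1 made up 7.32, 6.49, 5.73 and 3.77% in tumor CD45+, 2.76, 2.97, 3.03 and 3% in tumor CD8+, 3.6, 3.15, 3.88 and 4.11% in splenic CD45+ and 2.32, 2, 2.37 and 2.75% in splenic CD8+ libraries. Rps4l reached at most 0.754%, Rpl3l 0.58% and Rpl39l 0.047% of their pairs.

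**Figure D3:**
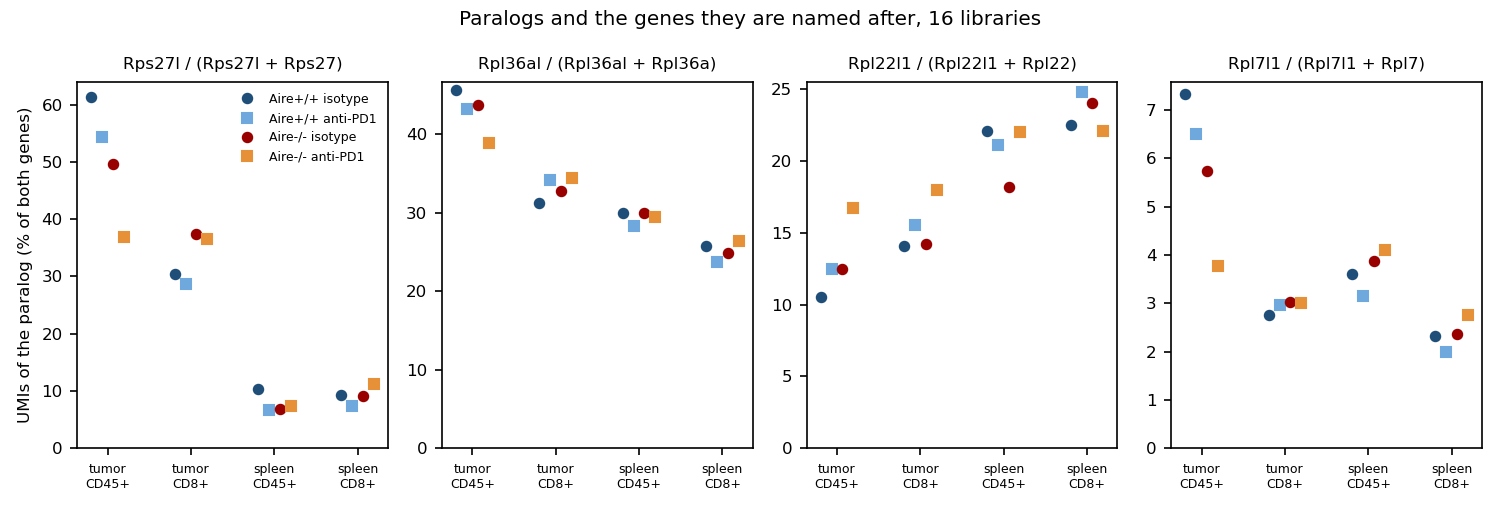
Percentage of the UMIs of each pair that fell on the paralog Rps27l, Rpl36al, Rpl22l1 or Rpl7l1 in the 16 libraries. Colors and symbols mark genotype and treatment, and tissue and sort are on the horizontal axis.

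Within classes of CD8+ cells Rps27l was 7.54, 6.43, 7.03 and 8.68% of its pair in naive-like, 11.8, 15.3, 22.1 and 24.6% in memory-/effector-like and 30.8, 28.7, 37.8 and 40.3% in tumor activated-like cells. These ranges were apart. In cluster 5 of the CD45+ sort it was 46.5, 36.3, 30.2 and 33.6% in the tumor and 12.2, 12.4, 14 and 18.5% in the spleen. Rpl36al was 24.7, 23.1, 23.3 and 25.3% in naive-like, 40.4, 43.5, 46.6 and 44% in memory-/effector-like and 31.6, 33.8, 33.3 and 34.6% in activated-like cells. Rpl22l1 did not separate the splenic classes (23, 25.2, 24.3 and 22.5% against 22.1, 21, 27.3 and 22.8%) and was lower in tumor activated-like cells (13.1, 14.3, 13.3 and 17.5%).

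Levels per class showed where Rps27l came near to or passed Rps27. Dendritic-like cells of the tumor had mean levels of 568 CPM for Rps27l and 262 for Rps27, cycling CD8+ cells of cluster 6 had 297 and 249, and macrophage-like cells had 246 and 180. Tumor monocyte-like cells had 212 and 247 CPM, and tumor activated-like CD8+ cells had 194 and 380. In splenic B-like cells Rps27l was at 105 and Rps27 at 1610 CPM, and in naive-like CD8+ cells at 85.1 and 1074. The dendritic-like class is mixed: at the finer resolution 430 of its 659 tumor cells fell in a cluster led by Cd209a and 229 in one led by Fscn1 and Ccr7.

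Rpl3l was nearly confined to myeloid cells. It had 606 UMIs in tumor CD45+ libraries (273, 142, 132 and 59), 26 in tumor CD8+, 126 in splenic CD45+ and 0 in splenic CD8+ libraries, where a level of 3 counts in the total would not have been told from none. Of all 758 UMIs, 431 (56.9%) were in tumor macrophage-like, 116 (15.3%) in splenic monocyte-like, 87 (11.5%) in dendritic-like and 63 (8.31%) in tumor monocyte-like cells. These classes are not uniform: at the finer resolution 525 of 529 splenic monocyte-like cells fell in a cluster led by Ace, and 305 of 429 tumor monocyte-like and 1417 of 5027 tumor macrophage-like cells in another led by Thbs1. Among these classes, the mean level was highest in splenic monocyte-like cells, at 26.7 CPM. It was 12.5 in tumor monocyte-like, 8.85 in dendritic-like and 6.04 in macrophage-like cells. Neutrophil-like cells, with 18 UMIs in the tumor and 7 in the spleen, were too few per library to be ranked. No UMI was found in naive-like, memory-/effector-like or activated-like cells of the CD8+ sort.

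Genes that work with the members were read from 5 lists. Of all tested genes, 36.5% were higher and 38.5% lower between tissues in the CD8+ sort and 34.9 and 37.4% in the CD45+ sort. The shares were 22.3 and 22.2% in memory-/effector-like cells, 25.6 and 23.2% in tumor activated-like cells and 22 and 19% in cluster 5. No list was tested against these shares. Of 12 elongation genes tested, 1 was higher and 11 lower between tissues in the CD8+ sort (median -0.40), 0 and 9 in the CD45+ sort (-0.36), 0 and 11 in memory-/effector-like cells (-0.83), 10 and 0 in tumor activated-like cells (0.35) and 12 and 0 in cluster 5 (0.72). Eef1b2 had -0.87, -0.59, -1.45, 0.57 and 1.12 in these comparisons. Fau, with the fused ribosomal protein, had -0.28, -0.36, -0.69, 0.38 and 0.47, in the directions of the member medians.

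Genes of ribosome biogenesis were 6 higher and 34 lower of 43 in the CD8+ sort (median -0.41), 4 and 23 in the CD45+ sort (-0.35), 1 and 35 in memory-/effector-like cells (-0.85), 14 and 0 in tumor activated-like cells (0.29) and 27 and 1 in cluster 5 (0.78). Utp20 had -1.31 in the CD8+ sort and -1.51 in memory-/effector-like cells, and Noc2l had 2.42 in cluster 5. Initiation factors were 14 higher and 9 lower in the CD8+ sort (0.05), 12 and 8 in the CD45+ sort (0.01), 2 and 19 in memory-/effector-like cells (-0.26), 20 and 3 in tumor activated-like cells (0.41) and 22 and 0 in cluster 5 (0.59).

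Of 77 mitochondrial ribosomal protein genes tested, 32 were higher and 22 lower in the CD8+ sort (median 0.03) and 29 and 13 in the CD45+ sort (0.09). They were 14 higher and 22 lower in memory-/effector-like cells (-0.14), 29 and 3 in tumor activated-like cells (0.21) and 30 and 1 in cluster 5 (0.40). The 13 regulators went both ways, with 5 higher and 5 lower in the CD8+ sort, 5 and 5 in the CD45+ sort, 2 and 5 in memory-/effector-like cells, 3 and 2 in tumor activated-like cells and 2 and 1 in cluster 5. In the CD8+ sort Mtor (0.52), Eif4ebp1 (0.49) and Rheb (0.42) were higher. Myc, which drives ribosome synthesis, had -1.02 in the CD8+ sort, -0.11 in the CD45+ sort without a call, -2.76 in memory-/effector-like cells, 1.23 in tumor activated-like cells and 1.24 in cluster 5. Trp53, upstream of Rps27l, had -0.74 in the CD8+ sort, -1.04 in the CD45+ sort and -0.98 in memory-/effector-like cells, and was not called in tumor activated-like cells (0.20) or cluster 5 (0.25).

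Genotype and treatment had 1 library per condition in each tissue and sort, so their differences are described and carry no test. In tumor CD45+ cells the members were higher in Aire-/- than in Aire+/+ mice under anti-PD1, with a share of 18.45 against 14.69%. There 79 of 83 members with at least 100 UMIs in the pair were higher, and 59.2% of all genes (medians 0.32 and 0.09). Under isotype the share was 14.1 against 14.6%, and 24 of 83 members and 47.7% of all genes were higher. Anti-PD1 against isotype gave 79 of 83 in Aire-/- mice, with 60.9% of all genes (medians 0.39 and 0.10), and 47 of 83 in Aire+/+ mice, with 51.5% of all genes.

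Makeup of the Aire-/- anti-PD1 library differed from that of the Aire+/+ anti-PD1 library. It held 558 macrophage-like cells (26.9%) and 810 activated CD8-like cells (39%), against 1386 (62.8%) and 253 (11.5%). Within macrophage-like cells the share was lower in Aire-/- mice (10.5 against 12.1%), and within activated CD8-like cells too (23.3 against 24.7%). In regulatory T-like cells, 83 and 111 in number, it was slightly higher (16.9 against 16.6%).

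In the other sets shares differed by at most about 2 points. For tumor CD8+ cells Aire-/- minus Aire+/+ was -1.11 points under isotype (12 of 82 members and 41.5% of all genes higher) and 0.429 under anti-PD1 (56 of 82, 45.1%). Anti-PD1 minus isotype was -2.2 in Aire+/+ (6 of 82, 49.4%) and -0.661 in Aire-/- mice (14 of 82, 54.0%). For splenic CD45+ cells the same differences were 1.58 (62 members, 50.4% of all genes), -0.195 (39, 54.2%), 1.11 (70, 52.4%) and -0.658 (8, 56.6%). For splenic CD8+ cells they were -1.26 (22, 51.6%), -1.87 (27, 63.1%), 0.449 (38, 42.9%) and -0.164 (47, 61.1%). With UMIs outside ribosomal protein genes as the scale, the counts of 12, 6, 8 and 27 members became 6, 2, 5 and 13. That scale shifts all genes of a pair alike, so the percentages of all genes given here do not apply to it. The share of all genes higher under it is not given, and the lower counts are no result about the members alone.

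Finally, the start of each gene was read in the mouse genome (GRCm38.p6), 15 bases before and 15 after the annotated start, for the 64 of 85 members found in the table of start sites. An unbroken run of at least 8 C or T was present in 27 of 64 members (42.2%) and in 13.8% of 26961 other genes. The median of the longest run was 7 against 5 bases. The motif CTTTCC was present in 10 members (15.6%) and in 1.67% of all genes, and on the other strand in 0 members and 1.48% of all genes. Members with such a run (27 tested) and without (34) had the same median fold in memory-/effector-like cells, -1.10 and -1.10. A match is a description of the sequence only.

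The windows of 8 members are given 5' to 3' with the longest C/T run in capitals. Rpl7a (chr2:26910792-26910821, plus strand) had the longest run of the 64 members read, 21 bases, and Rpl41 (chr10:128549154-128549183, minus strand) one of 3.
Rpl7a: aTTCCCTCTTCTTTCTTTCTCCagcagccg
Rpl41: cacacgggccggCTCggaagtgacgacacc
Runs of 19 and 18 bases were found in Rpl27a (chr7:109519180-109519209, plus strand) and in Rpl34 (chr3:130730323-130730352, minus strand).
Rpl27a: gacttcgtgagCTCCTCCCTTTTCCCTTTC
Rpl34: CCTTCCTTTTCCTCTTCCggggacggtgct
Rpl35 (chr2:39005117-39005146, minus strand) and Rps27 (chr3:90213634-90213663, minus strand) carried CTTTCC within runs of 18 and 9 bases.
Rpl35: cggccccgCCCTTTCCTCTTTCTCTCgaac
Rps27: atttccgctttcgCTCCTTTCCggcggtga
The paralogs Rps27l (chr9:66946071-66946100, plus strand) and Rpl22l1 (chr3:28805493-28805522, plus strand) had runs of 9 and 10 bases without it.
Rps27l: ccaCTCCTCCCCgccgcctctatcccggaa
Rpl22l1: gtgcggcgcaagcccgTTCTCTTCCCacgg

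Several limits apply. Each condition was 1 library of pooled mice, so spread between single mice is unknown, and the 4 libraries of a group differ in genotype and treatment. Tissue groups also differ in UMIs per cell and in makeup. The median mitochondrial percentage per cell differs too, at 1.75 to 2.21 in tumor and 3.35 to 4.90 in splenic libraries. Its part in the folds was not tested. Shares are relative, so a lower share may come with the same or a greater number of member mRNAs per cell. Splenic memory-/effector-like cells were few, and results for them depended on where cluster 4 was placed. Counts of members with near-identical copies in the genome are uncertain. mRNA levels do not give protein levels or translation.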

How the data were processed

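UMI counts per cell were deposited by the authors as 1 table per library, and 0 of the per-sample columns went unused. The reads were not realigned. Cells needed 200 detected genes and at most 20% mitochondrial UMIs. Gene symbols were taken from the start of each entry name and summed, and 27 vector entries were left out, and 861 barcodes shared by more than 1 library (1736 cells) were kept. Cells of each sort were clustered without the member genes on 1000 variable genes and 15 principal components (30 neighbours, Leiden resolution 0.4). Clusters were named from the 10 leading genes and marker lists by a rule chosen after the clusters were seen, and clusters that met no rule keep their number. Scrublet called 58 of 17668 CD45+ cells (0.328%) and 18 of 19785 CD8+ cells (0.091%) doublets, too few for the caller to have worked, so no cell was left out on that ground.

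UMIs were summed per library, or per library and class with 50 cells or more. edgeR 4.0.16 (quasi-likelihood, TMM scaling, its own filter on low counts) tested 5 comparisons with the 4 sets of mice as a block, and p values were adjusted by the Benjamini-Hochberg method, with calls below 0.05. DESeq2 1.42.0 was the second tool. The total share has no test. CPM are scaled to all UMIs of the library or class, and folds are after TMM scaling.

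Genes named in the text come by rule from the 5 largest log2 fold changes per direction among called members of each comparison, the 5 highest and 5 lowest mean levels, the 5 highest and 5 lowest CV, the stalk genes and Rpsa, and each paralog with its parent. Fau, other members given for comparison, and the levels of Rpl3l and Rps27l per class were added after the results were seen, for description. From each list of related genes up to 3 per direction could be named. Members and lists were chosen with earlier results of these data known. R 4.3.3, Python 3.11.15 and scanpy 1.11.5 were used.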

Additional observations from a re-analysis of the deposited data

Results flagged for a closer look

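In each tissue and sort, the 4 libraries were examined for 1 value apart from the rest, for the share and the named members. Of 157 groups 17 were marked. Chance flags about 1 in 20 groups, or 7.8 of these, if groups are independent. Members of the same library share its UMI total and enter its share, so the groups are not independent. The number marked can therefore not be judged against 7.8.

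All but 1 concern the tumor CD45+ library of Aire-/- anti-PD1 mice, which was high. Its share was 18.45% (others 14.1 to 14.69). In CPM, with the range of the other 3 libraries, Rpl12 was 957.7 (680.4 to 715.5), Rpl14 603.4 (396 to 425), Rpl3 1795 (1202 to 1294), Rpl36a 1214 (905.2 to 950.8), Rpl39 3894 (2936 to 3044), Rplp0 3706 (2778 to 2851) and Rplp2 1689 (1290 to 1357). Among 40S members Rps15a was 3805 (2050 to 2310), Rps18 1889 (1425 to 1495), Rps20 3387 (2472 to 2620), Rps24 4830 (3604 to 3723), Rps29 5204 (4681 to 4759), Rps4x 3227 (2382 to 2430), Rps6 1207 (935 to 961.7) and Rpsa 3939 (2733 to 2767).

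In tumor CD8+ libraries Rpl7 was 1862 CPM in Aire+/+ isotype mice (1746 to 1752 in the others). All libraries were kept.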

How the results depend on the processing

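Alternatives for test, scaling, filter, block, mice, shared barcodes, clusters and doublets were run where they applied, those for clusters only in comparisons of classes. Joining cluster 4, leaving out the highest scrublet scores and leaving single libraries out of the mean shares were chosen after seeing the data. The cause of the changes was not tested.

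For tumor against spleen in the CD8+ sort, members higher were 2 without the filter on low counts and 1 to 2 when each set of mice was left out (1 in the first run). With cells thinned to 1000 UMIs, 5539 genes were called in place of 8796. In the CD45+ sort, scaling to UMIs outside ribosomal protein genes turned Rpl36al to -0.39 and Rpl7l1 to -0.43.

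For memory-/effector-like against naive-like cells, members higher were 0 with DESeq2, 2 with the marker gate, 2 with cluster 4 joined and 0 to 1 when each set of mice was left out. Members lower were 50 with the marker gate. Rps4l turned to 1.02 with the gate and 1.45 with cluster 4 joined.

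For tumor activated-like cells, members higher were 39 with total UMIs and 2 with cluster 4 joined, and members lower were 6 with total UMIs, 5 with UMIs outside ribosomal protein genes and 70 with cluster 4 joined. Joining it turned the median to -0.49, and turned Rpl10 to -0.29, Rpl22 to -0.45, Rpl3 to -0.16, Rpl36a to -0.70, Rpl36al to -0.22, Rpl39 to -0.46, Rpl7 to -0.35, Rplp0 to -0.61, Rplp2 to -0.65, Rps15a to -0.27, Rps20 to -0.66, Rps4l to -0.84, Rps4x to -0.58 and Rpsa to -0.60. The call of Rps26 was lost (0.08), Rpl41 was at -0.07 without a call, and Rplp1 was called lower (-1.22).

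In cluster 5 of the CD45+ sort, members lower were 1 with DESeq2, 1 without the filter, 1 with no replicate block, 1 at resolution 0.8, 1 without called doublets, 1 without the highest scores and 1 to 2 when each set of mice was left out, the gene lost being Rpl30.

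With UMIs outside ribosomal protein genes as the scale, members higher were 6 in place of 12 for Aire-/- against Aire+/+ isotype tumor CD8+ cells and 2 in place of 6 for anti-PD1 against isotype in Aire+/+ tumor CD8+ cells. They were 5 in place of 8 for anti-PD1 against isotype in Aire-/- splenic CD45+ cells and 13 in place of 27 for Aire-/- against Aire+/+ anti-PD1 splenic CD8+ cells. That scale shifts all genes of a pair alike, and the share of all genes higher under it is not given.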
